A study of Anser cygnoides with 11 samples.

Results

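Antioxidant and NRF2 target genes were described in kidneys of 5 goslings with visceral gout, a deposition of urate on inner organs, and of 6 healthy ones; all 11 birds are swan geese (Anser cygnoides). The gout goslings were chosen by the study for typical visceral gout signs and serum findings, and the control goslings as healthy birds; no drug, diet or genotype separates the groups in the labels, and age and sex are not given. The labels call the goslings separate animals, and each gave 1 library of polyadenylated RNA from renal tissue. Members were taken by symbol from a list of 38 antioxidant enzymes, NADPH-supplying enzymes and parts of the NRF2 pathway: 33 symbols matched 35 rows of the deposited table of 19275 rows, since NQO1 and PRDX6 have 2 rows each. SRXN1, MAFF, KEAP1, GLRX5 and GLRX matched no row and were not analysed here. Values are FPKM, fragment numbers that the authors divided by transcript length and by the size of the library, so that levels can be compared between genes per unit of length. Of the 35 rows, 34 reached 1 FPKM in at least 5 of the 11 libraries and were tested; GPX7 did not.

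NRF2, encoded by NFE2L2, is a transcription factor that KEAP1 holds in the cytoplasm and hands to the proteasome; oxidants and electrophiles modify KEAP1, and NRF2 then enters the nucleus, pairs with a small MAF protein and switches on genes of detoxification, glutathione and thioredoxin metabolism and NADPH supply. Superoxide dismutases turn superoxide into hydrogen peroxide, which catalase, peroxiredoxins and glutathione peroxidases remove. The thioredoxin and glutathione systems regenerate the peroxiredoxins and glutathione peroxidases with electrons from NADPH. The tubule cells of the kidney are rich in mitochondria and peroxisomes and depend on this network. NRF2 activity is set largely at the level of the protein, which was not measured.

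Markers of kidney epithelium were present in both groups: PAX2, a transcription factor of the nephron, at 8.69 ± 1.09 FPKM in gout against 8.31 ± 0.730 in healthy kidney, and the more abundant row of EMX2, a transcription factor of the developing urogenital tract, at 73.6 ± 18.1 and 59.4 ± 14.7 FPKM (SD, n = 5 and 6). The FPKM of all rows summed to between 229465 and 399990 per gout library and between 306484 and 390546 per control library, and the deposited values do not give the sequencing depth. The 10 most abundant rows held 25.6% to 29.7% of the FPKM in gout and 18.7% to 22.2% in control libraries, without overlap (exact two-sided permutation p = 0.00216), and 10712 to 11927 rows in gout against 11847 to 12569 in control libraries reached 1 FPKM (exact two-sided permutation p = 0.00433). The part of these library-wide differences in the lower member values was not tested. Over the 12252 tested rows the median difference, gout minus control, was -0.29 on the log2(FPKM + 1) scale, and a member has to be read against that value. Fold changes below are on that scale, which understates changes of low rows, and a row is called when limma's adjusted p, by the Benjamini-Hochberg method over all tested rows, is under 0.05.

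In healthy kidney the most abundant member per length was PRDX1, a cytosolic peroxiredoxin, at 509 ± 105 FPKM (SD, n = 6). Thioredoxin (TXN) and the copper-zinc superoxide dismutase SOD1 followed at 299 ± 119 and 294 ± 90.6 FPKM, a difference smaller than their spread. SOD2, the manganese dismutase of mitochondria, stood at 123 ± 35.9 FPKM, the transketolase TKT at 95.9 ± 21.9 and mitochondrial thioredoxin TXN2 at 94.0 ± 11.01 FPKM. Of the regulators, SQSTM1 was next in this order at 78.6 ± 9.81 FPKM, while NFE2L2 was at 18.7 ± 8.01 and its partner MAFG at 3.40 ± 0.377 FPKM. Among healthy goslings MAFG, TXN2, SQSTM1, TXNRD3 and GLRX3 varied least, with coefficients of variation from 11.1% to 14.0%, and catalase (CAT, 77.5%) and the minor NQO1 row (121%) most. In gout kidney TXN at 320 ± 170 and SQSTM1 at 305 ± 432 FPKM had the highest means, followed by PRDX1 at 303 ± 170 FPKM (SD, n = 5), 3 means that lie within their spread.

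**Figure D1:**
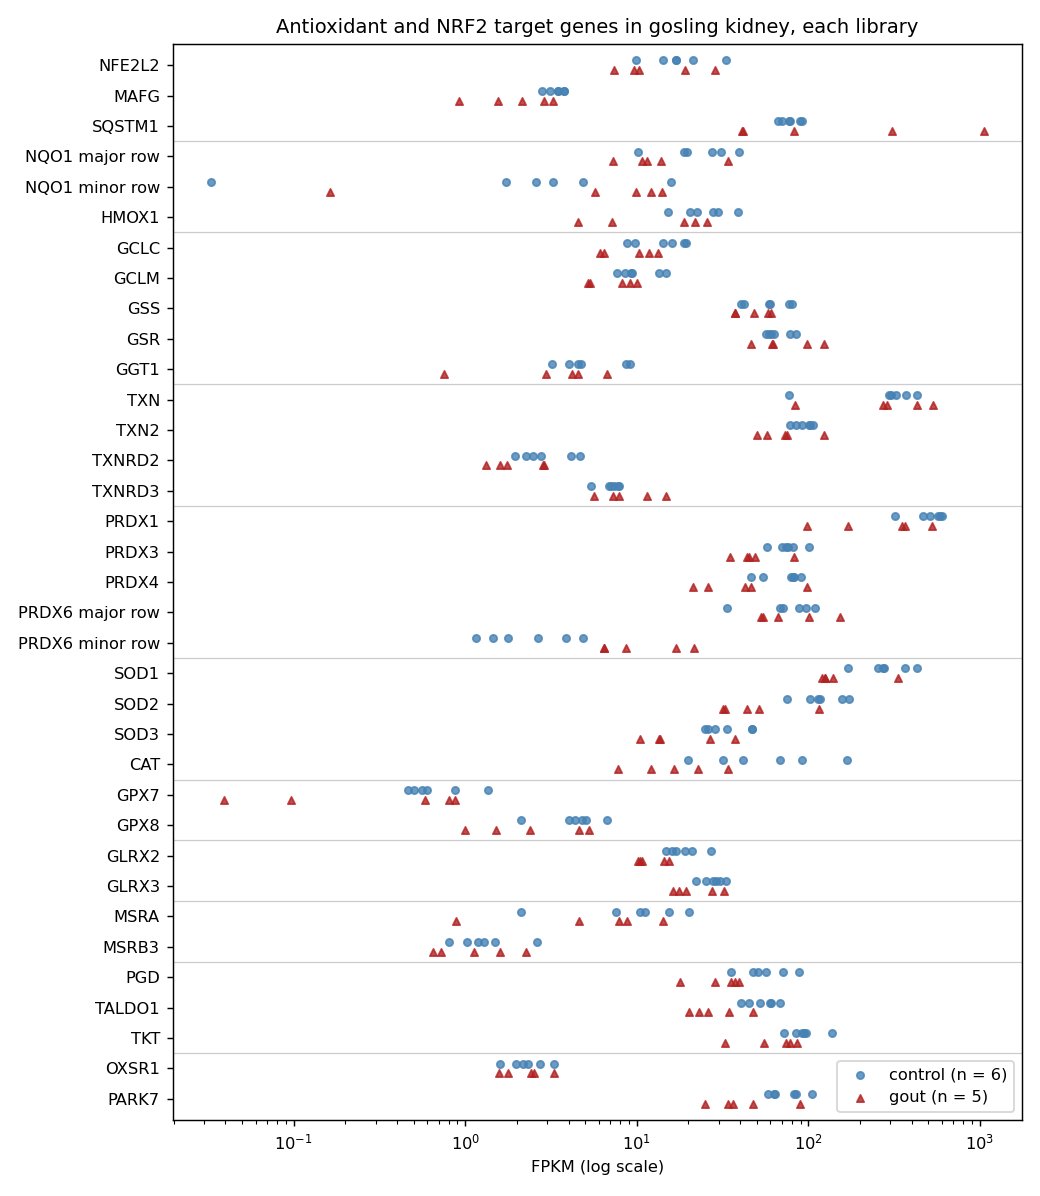
Level of each of the 35 rows in each library (x axis, FPKM, log scale; rows on the y axis grouped by role; blue circles are the 6 control and red triangles the 5 gout libraries). The minor PRDX6 row is the one in which all red triangles lie to the right of all blue circles, and SQSTM1 spreads from 40.8 to 1052 FPKM in gout kidneys.

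Gout was then compared with healthy kidney to see whether transcripts of this network differ in the diseased organ. Of the 34 tested member rows 1 rose, the minor PRDX6 row, 2 fell, SOD2 and TALDO1, and 31 did not pass limma. Of all tested rows 0.694% were called higher and 6.29% lower (6.99% in either direction); 2 of 34 rows, or 5.88%, lower is near that background. The median log2 fold change of the member rows was -0.55, and 27 of 34 (79.4%) lay below 0, against 76.8% of all rows. At an unadjusted limma p under 0.05, 14 of the 34 member rows were lower, a larger share than the 24.3% of all tested rows. At the same threshold 1 of the 34 was higher, beside 2.69% of all tested rows. In 0 member rows did all gout libraries lie below all controls, an arrangement that 4.55% of all rows show. After quantile normalization, which gives all libraries the same distribution and moved the median of all rows to 0.01, the member median was -0.26. Then 1 member row was higher (the minor PRDX6 row) and 1 lower (SOD2). Over all rows 226 were then called higher and 245 lower, in place of 85 and 771, and upper quartile scaling gave 178 and 334. In either direction, 15 of the 34 member rows and 3310 of the 12252 tested rows had an unadjusted limma p under 0.05. After quantile normalization these numbers were 8 and 2689, and after upper quartile scaling 8 and 2674. Under both scalings the member share was near that of all rows. Without gout replicate 5 there were 8 member calls, 7 of them lower (20.6% of member rows, beside 11.3% of all tested rows). Without each of 7 other libraries (gout replicates 2, 3 and 4, control replicates 1, 3, 4 and 5) the 1 call left was the minor PRDX6 row.

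**Figure D2:**
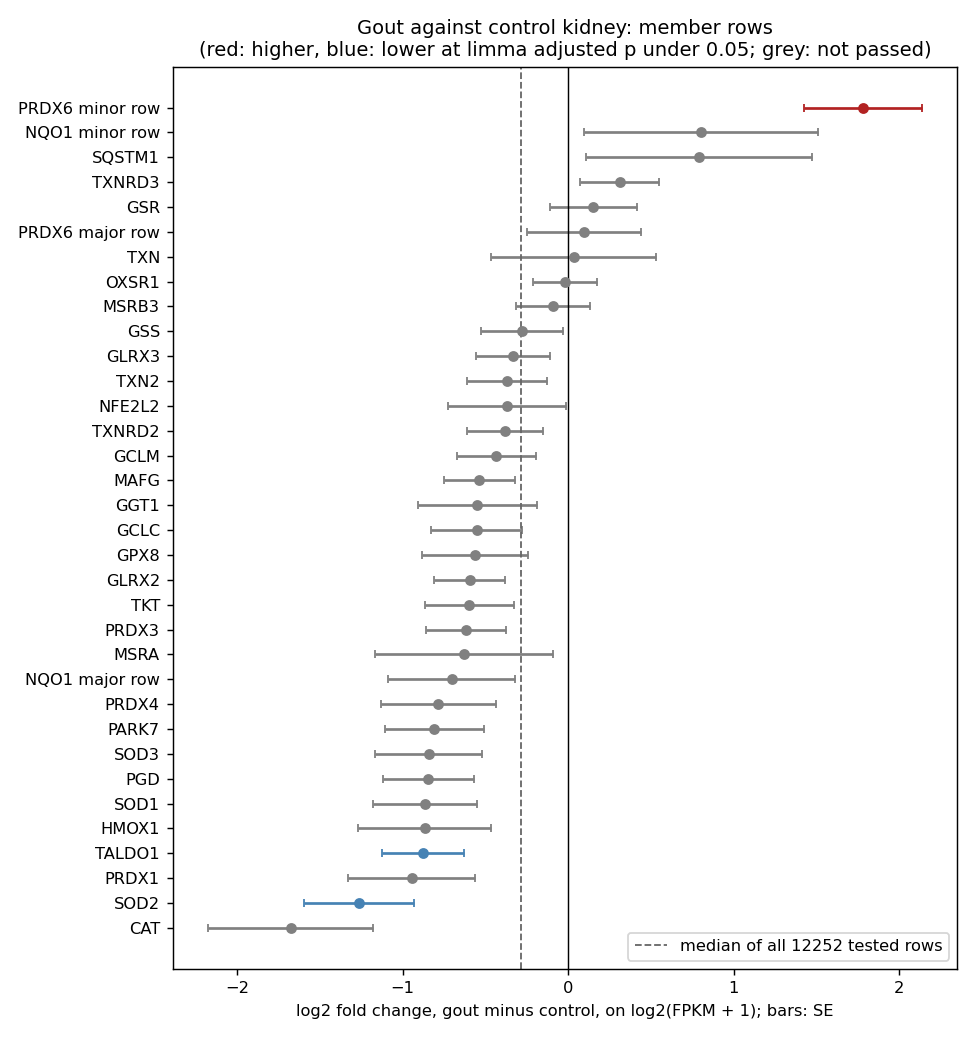
Log2 fold change of each of the 34 tested member rows, gout minus control on log2(FPKM + 1) (x axis; points are estimates, bars the standard error, colours the limma call). The dashed line at -0.29 is the median of all 12252 tested rows; 27 of the 34 points lie below 0, the minor PRDX6 row far to its right at 1.78.

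Of the regulators, none of the 3 tested rows passed. NFE2L2 stood at 10.3, 19.2, 9.57, 7.36 and 28.5 FPKM in gout replicates 1 to 5, and from 9.84 to 33.2 with a median of 16.9 in the controls. The groups overlapped widely, and the log2 fold change of -0.37 (SE 0.36, limma adjusted p = 0.516) is close to that of the median row. MAFG, a small MAF protein that binds DNA together with NRF2, was at 2.14 ± 0.948 FPKM in gout against 3.40 ± 0.377 in control kidneys (limma adjusted p = 0.13), with 3 of 5 gout libraries below the whole control range.

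SQSTM1 encodes p62, a receptor of selective autophagy that also binds KEAP1 and is itself an NRF2 target. It stood at 305, 40.8, 41.4, 1052 and 82.7 FPKM in gout replicates 1 to 5, while the 6 controls lay between 66.6 and 91.2 with a median of 77.3 FPKM. Gout replicates 4 and 1 were above the narrow control range, replicates 2 and 3 below it and replicate 5 inside it, so the medians, 82.7 in gout and 77.3 in control, were close. The group difference did not pass (log2 fold change 0.79 with SE 0.68, limma adjusted p = 0.471). Without gout replicate 4 the gout mean was 118 FPKM in place of 305, and over the 3 gout libraries other than replicates 1 and 4, a choice made after the values were seen, it was 55.0 FPKM.

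**Figure D3:**
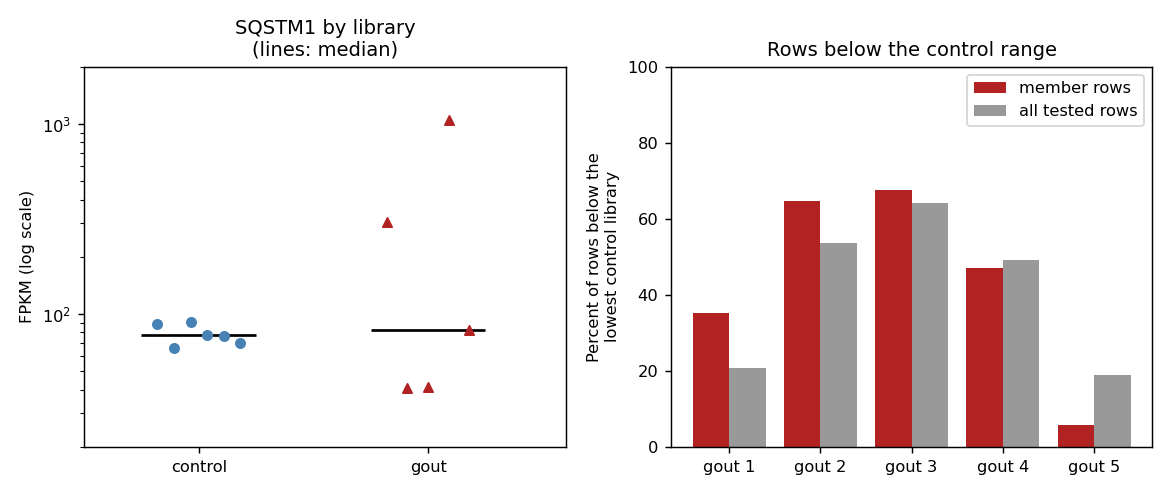
Left: SQSTM1 in each library (y axis, FPKM, log scale; lines are group medians, 77.3 in control and 82.7 in gout). Right: share of the 34 member rows (red bars) and of all tested rows (grey bars) that lie below the lowest control library, for each gout library; it is highest in gout replicate 3 and lowest in replicate 5.

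Classical inducible targets were not called. HMOX1, the heme oxygenase that splits heme into biliverdin, iron and carbon monoxide, stood at 25.8, 7.14, 4.57, 18.9 and 21.8 FPKM in gout and from 15.1 to 39.0, median 25.2, in control kidneys (log2 fold change -0.87 with SE 0.40, limma adjusted p = 0.182). Gout replicates 2 and 3 were below every control, and the other gout libraries lay among them. NQO1, a quinone reductase, has a major row of 3 RefSeq transcripts, at 15.4 ± 10.6 FPKM in gout against 24.4 ± 10.4 in control kidneys (limma adjusted p = 0.253). Its minor row, a single assembled transcript with no RefSeq accession, stood at 14.1, 12.03, 9.87, 0.162 and 5.73 FPKM in gout against 0.0331 to 15.8 in control libraries (limma adjusted p = 0.481). The control mean of that row, 4.71 FPKM, was 2.48 without control replicate 4. It made up 35.3% ± 26.5 of the summed FPKM of both rows in gout and 14.2% ± 10.9 in control kidneys (exact two-sided permutation p = 0.117).

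Glutathione is built by glutamate-cysteine ligase, whose catalytic and modifier subunits are GCLC and GCLM, and by the synthetase GSS. None of the 5 rows of this branch passed, and their log2 fold changes ran from -0.55 to 0.15. GCLC was at 9.59 ± 3.21 FPKM in gout against 14.5 ± 4.49 in control kidneys (limma adjusted p = 0.209), GCLM at 7.57 ± 2.19 and 10.5 ± 2.90, and GSS at 48.3 ± 11.04 and 59.7 ± 16.8 FPKM. GGT1, a cell surface enzyme of the tubule that breaks down extracellular glutathione, was at 3.83 ± 2.20 and 5.71 ± 2.51 FPKM. GSR, which reduces oxidized glutathione with NADPH, differed from these in sign: gout libraries had 61.3, 46.4, 62.0, 123 and 97.7 FPKM, and the controls 56.3 to 84.4 with a median of 61.6. Only gout replicates 4 and 5 exceeded the control range, and the difference did not pass (log2 fold change 0.15 with SE 0.26, limma adjusted p = 0.733; -0.03 without gout replicate 4).

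In the thioredoxin system 0 of 4 rows passed. TXN, the cytosolic thioredoxin, stood at 431, 286, 83.0, 274 and 529 FPKM in gout and from 77.3 to 427, median 312, in control kidneys, so the groups overlapped and the fold change of 0.03 had an SE of 0.50. TXN2, its mitochondrial counterpart, was lower than every control in 4 gout libraries and higher than every control in gout replicate 5, at 123 FPKM (75.7 ± 28.3 against 94.0 ± 11.01 FPKM, limma adjusted p = 0.329). The reductases that recharge thioredoxins are selenoproteins. TXNRD2, the mitochondrial form, was at 2.08 ± 0.738 and 3.04 ± 1.10 FPKM (limma adjusted p = 0.293). TXNRD3 stood at 7.90, 7.28, 5.65, 14.9 and 11.5 FPKM in gout against 5.40 to 7.90, median 7.24, in control kidneys: 3 gout libraries were above the control range, replicate 1 barely (7.904 against 7.8998), and its log2 fold change was 0.31 (SE 0.24, limma adjusted p = 0.412; 0.58 and 0.0925 after quantile normalization).

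Peroxiredoxins reduce peroxides with a reactive cysteine. PRDX6, which unlike the others of its family draws on glutathione and also has phospholipase activity, has 2 rows with consecutive locus identifiers, MSTRG.7473 and MSTRG.7474, of the form StringTie gives to assembled loci; neither lists a RefSeq transcript. The minor row, MSTRG.7473, with 1 assembled transcript, stood at 6.399, 8.64, 6.44, 17.0 and 21.5 FPKM in gout and from 1.15 to 4.85, median 2.23, in control kidneys. Every gout library lay above every control library, which 0.482% of all tested rows show, and the row rose from 2.63 ± 1.47 to 11.99 ± 6.86 FPKM (SD, n = 6 and 5; log2 fold change 1.78 with SE 0.36, limma adjusted p = 0.0138). The call held without any single gosling (limma adjusted p from 0.00843 to 0.0405) and in every other limma setting tried.

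The major row, MSTRG.7474, with 3 assembled transcripts, stood at 66.1, 54.4, 53.0, 100.5 and 153 FPKM in gout and from 33.7 to 109 in control kidneys (log2 fold change 0.10 with SE 0.34, limma adjusted p = 0.876). The minor row took 8.82% to 14.4% of the summed PRDX6 FPKM in gout and 1.04% to 5.37% in control libraries (12.03% ± 2.26 and 3.55% ± 1.89; exact two-sided permutation p = 0.00216, the smallest the 462 splits allow, and 0.00433 adjusted over the PRDX6 and NQO1 shares, both chosen after the values were seen). The share is a ratio within a library and does not depend on its scaling. With the rows summed, PRDX6 stood at 97.3 ± 48.8 and 80.5 ± 26.7 FPKM and was not called (log2 fold change 0.23 with SE 0.34, limma adjusted p = 0.693). FAM78B and TADA1, the genes beside PRDX6 in the RefSeq order of the Taihu goose assembly, were at 1.62 ± 0.691 against 1.002 ± 0.257 and 45.8 ± 14.3 against 44.7 ± 6.51 FPKM, and neither passed (limma adjusted p = 0.221 and 0.974). Whether counting used strand is not stated in the labels, so fragments of genes that overlap the minor row cannot be told apart from its own.

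**Figure D4:**
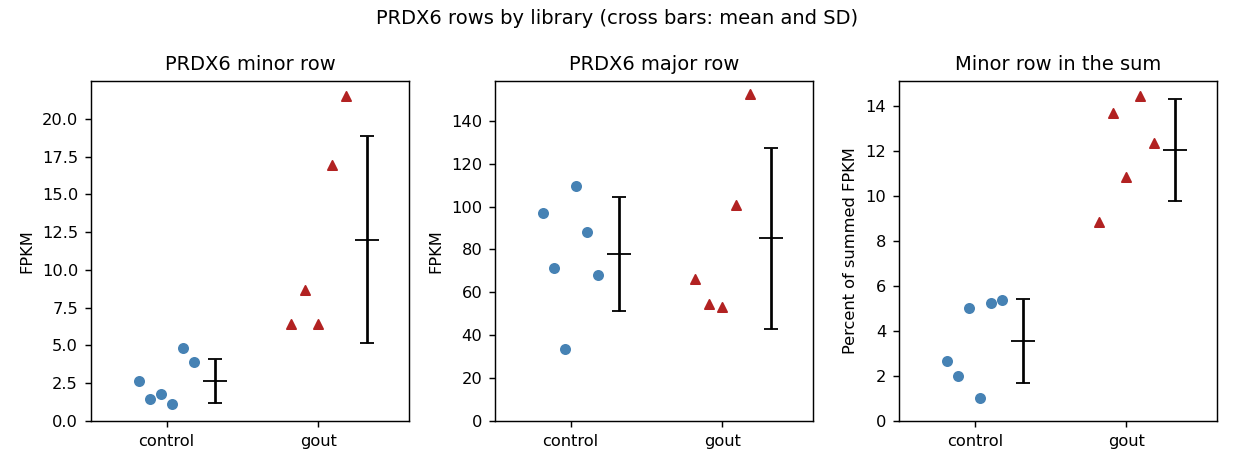
PRDX6 in each library (blue circles, 6 control; red triangles, 5 gout; cross bars, mean and SD): FPKM of the minor row, FPKM of the major row, and the minor row as a percentage of both. The groups are apart in the first and the last panel and overlap in the middle one.

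The other peroxiredoxins had negative fold changes and were not called. PRDX1 stood at 351, 170.0, 98.7, 368 and 527 FPKM in gout and from 322 to 598, median 542, in control kidneys (log2 fold change -0.95 with SE 0.38, limma adjusted p = 0.134). Replicates 2 and 3 of the gout group were below every control. PRDX3, the mitochondrial form, was at 51.1 ± 18.4 FPKM in gout against 76.7 ± 14.3 in control kidneys (limma adjusted p = 0.124), with 4 gout libraries below the control range, and PRDX4, the form of the endoplasmic reticulum, at 46.9 ± 30.7 and 72.4 ± 17.7 FPKM (limma adjusted p = 0.167). PRDX1 and PRDX3 passed without gout replicate 5 (limma adjusted p = 0.0497 and 0.0307) and PRDX4 without gout replicate 1 (0.0302). Each passed in 1 of 11 such fits, with limma adjusted p up to 0.276 for PRDX1, 0.242 for PRDX3 and 0.351 for PRDX4.

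Superoxide dismutases and catalase had the lowest fold changes by role, with a median of -1.06 over 4 rows. SOD2 stood at 43.6, 31.6, 32.8, 51.4 and 116 FPKM in gout and from 74.6 to 172, median 116, in control kidneys. Replicates 1 to 4 of gout lay below every control and replicate 5 among them. It fell from 123 ± 35.9 to 55.1 ± 35.0 FPKM (SD, n = 6 and 5; log2 fold change -1.26 with SE 0.33, limma adjusted p = 0.0396; -1.01 and 0.0427 after quantile normalization). The SOD2 call was lost without gout replicates 2, 3 or 4 or control replicates 1, 2, 3, 4 or 5 (limma adjusted p from 0.0558 to 0.10), with no filter and with upper quartile scaling.

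SOD1 showed the same arrangement of libraries: 124, 139, 126, 119.9 and 335 FPKM in gout against 171 to 429, median 272, in control kidneys, with replicates 1 to 4 below every control and replicate 5 among them (log2 fold change -0.87 with SE 0.31, limma adjusted p = 0.102; 0.0188 without gout replicate 5). SOD3, the secreted dismutase, was at 20.3 ± 11.4 and 34.4 ± 10.1 FPKM (limma adjusted p = 0.118; 0.0326 without gout replicate 1). CAT, the peroxisomal catalase, had the largest negative fold change of the members. It stood at 7.72, 16.5, 22.6, 12.1 and 34.1 FPKM in gout and from 19.8 to 167, median 54.8, in control kidneys, and the wide control group overlapped the gout group (log2 fold change -1.68 with SE 0.50, limma adjusted p = 0.0576). CAT passed without gout replicate 5 or control replicate 2 (limma adjusted p = 0.0343 and 0.0318). Without other single goslings the limma adjusted p reached 0.201 for SOD1, 0.243 for SOD3 and 0.125 for CAT.

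**Figure D5:**
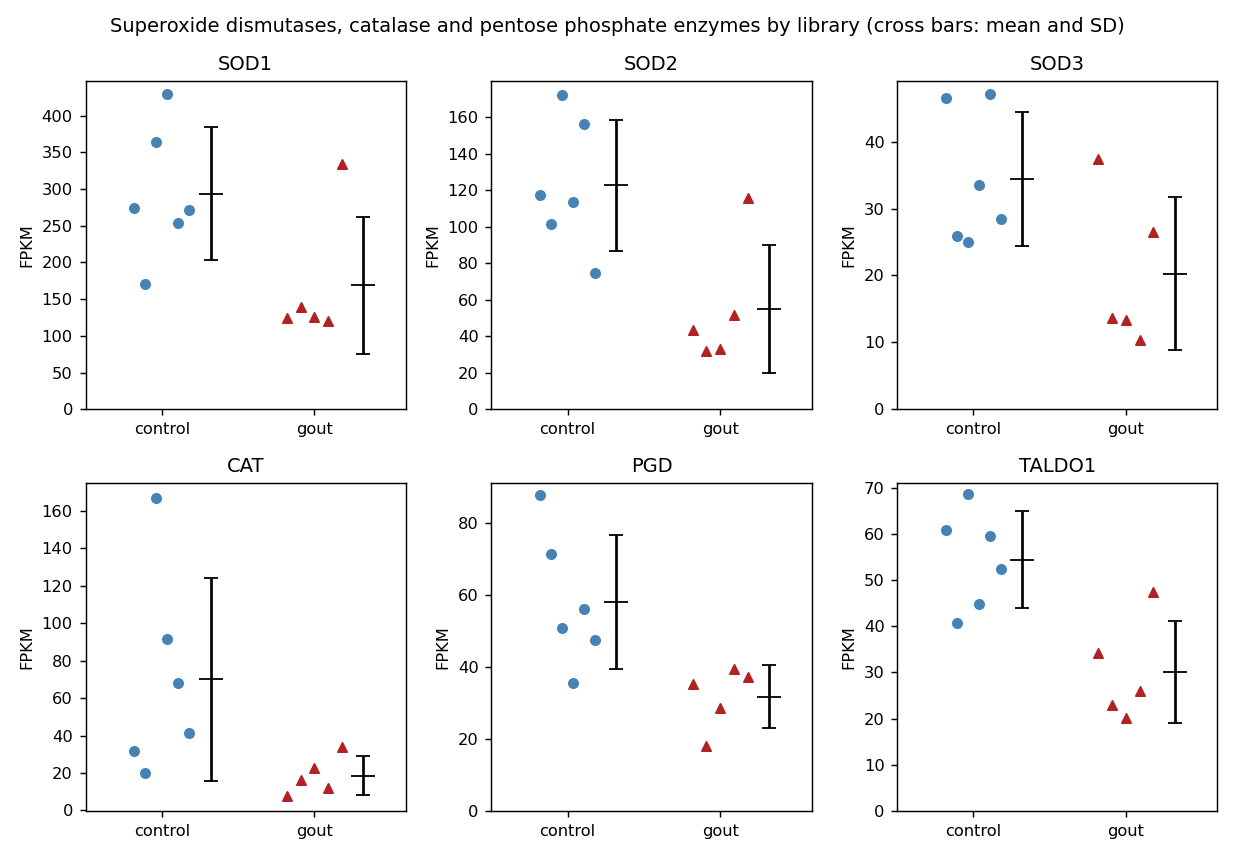
FPKM of SOD1, SOD2, SOD3, CAT, PGD and TALDO1 in each library (blue circles, 6 control; red triangles, 5 gout; cross bars, mean and SD). Gout replicate 5, the rightmost triangle of each panel, is the gout library inside the control range for SOD1 and SOD2.

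Several marker lists of other cells and of tubule segments held rows that fell, and others did not. The kidney epithelium list gave 0 calls in 6 tested rows (median log2 fold change 0.08). The adrenal and hepatocyte lists gave 0 in 1 each, and the erythrocyte list 1 fall in 2. Of the proximal tubule markers 5 of 11 tested rows fell, with a summed level of 96.8 to 393 FPKM in gout and 149 to 734 in control libraries; of the macrophage markers 7 of 9 fell (summed 153 to 1531 and 1023 to 5135 FPKM, mostly CD74) and of the lymphocyte markers 9 of 12 (31.6 to 204 and 155 to 645 FPKM). Endothelial markers gave 0 calls in 7 (12.9 to 25.4 and 19.5 to 46.6 FPKM), though all 7 had negative log2 fold changes, with a median of -0.53. Those of the distal tubule gave 4 falls in 7 (37.5 to 75.1 and 90.8 to 164 FPKM). Of all tested rows 6.29% were called lower. After quantile normalization the falls that passed numbered 3 in the proximal tubule, 3 in the macrophage, 7 in the lymphocyte and 2 in the distal tubule list. Over all 12252 tested rows 245 were called lower in that setting. Among the 9 macrophage and 13 lymphocyte symbols with a row, none was at 0 in every library of a group. Of the counted falls, GATM (proximal tubule) and CD79B (lymphocyte) were under 1 FPKM in every gout library, at most 0.828 and 0.798. They passed the filter only through control libraries. The part of these shifts in the lower SOD2 and TALDO1 values was not tested, and in whole tissue fewer cells of a type and less RNA per cell cannot be told apart.

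Pentose phosphate enzymes supply the NADPH on which the reductases run. TALDO1, transaldolase, stood at 34.3, 22.9, 20.2, 25.9 and 47.4 FPKM in gout and from 40.6 to 68.6, median 55.9, in control kidneys. It fell from 54.5 ± 10.5 to 30.1 ± 11.02 FPKM (SD, n = 6 and 5; log2 fold change -0.88 with SE 0.25, limma adjusted p = 0.0492), and again gout replicate 5 alone reached the control range. The TALDO1 call, next to the threshold, held without gout replicate 1 or 5 and was lost without each of the other 9 libraries (limma adjusted p from 0.0547 to 0.114), after quantile normalization (0.0523) and in 7 of 10 further settings. PGD, 6-phosphogluconate dehydrogenase, was at 31.7 ± 8.72 and 58.2 ± 18.6 FPKM (log2 fold change -0.85 with SE 0.27, limma adjusted p = 0.074), and TKT at 65.2 ± 21.3 and 95.9 ± 21.9 FPKM (limma adjusted p = 0.172).

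The remaining members repair thiols and methionine or act in other stress responses, and none was called. GLRX2, a glutaredoxin known in mammals as a mitochondrial and nuclear protein, was at 12.2 ± 2.48 FPKM in gout against 19.1 ± 4.46 in control kidneys, with 4 gout libraries below the control range (limma adjusted p = 0.0965); GLRX3, which takes part in iron-sulfur handling, was at 22.6 ± 6.96 and 28.1 ± 3.94 FPKM. PARK7, which encodes the redox-sensitive protein DJ-1, stood at 36.4, 47.3, 24.9, 34.1 and 89.7 FPKM in gout against 58.5 to 105, median 72.7, in control kidneys (log2 fold change -0.81 with SE 0.30, limma adjusted p = 0.109; 0.0192 without gout replicate 5). Its replicates 1 to 4 lay below every control, as with SOD1 and SOD2. Without other single goslings the limma adjusted p of PARK7 reached 0.229. The methionine sulfoxide reductases MSRA and MSRB3 were at 7.25 ± 4.93 and 11.1 ± 6.25 FPKM and at 1.27 ± 0.670 and 1.40 ± 0.642 FPKM. GPX8, a peroxidase of the endoplasmic reticulum, was at 2.96 ± 1.90 and 4.50 ± 1.498 FPKM, and GPX7, of the same compartment and untested, at 0.478 ± 0.389 and 0.725 ± 0.342 FPKM. OXSR1, a kinase that regulates salt cotransporters, differed by -0.02 (SE 0.19).

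Gout kidneys differed among themselves in these genes. Replicates 2 and 3 of the gout group had 22 and 23 of the 34 member rows below the lowest control (64.7% and 67.6%), replicate 4 had 16 (47.1%), replicate 1 had 12 (35.3%) and replicate 5 had 2 (5.88%). Over all tested rows these shares were 53.7%, 64.1%, 49.1%, 20.6% and 18.9% for replicates 2, 3, 4, 1 and 5, so the order of the gout libraries was the same in the members as in the whole table. The highest gout value of 20 member rows was in replicate 5 and that of 8 rows in replicate 4. Counting rows with at least 4 of 5 gout libraries below every control gave 7 members, TXN2, PRDX3, SOD1, SOD2, GLRX2, TALDO1 and PARK7, or 20.6% of the tested members, beside 17.5% of all tested rows.

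A second list of 105 symbols held other genes of the pathway, and also sources of oxidants and their partners. Of these symbols 70 had a row, and of 66 tested rows 8 fell (12.1%) and 0 rose, beside 6.29% and 0.694% of all tested rows. The list's median log2 fold change was -0.48. Of its targets and thiol enzymes, MGST1, a microsomal glutathione transferase, fell from 28.5 ± 8.04 to 11.3 ± 3.88 FPKM (limma adjusted p = 0.015), MSRB1, a selenoprotein that repairs methionine, from 74.0 ± 26.5 to 32.4 ± 13.2 FPKM (0.031), and FECH, the last enzyme of heme synthesis, and SESN3, a sestrin, fell as well (0.0493 and 0.0396). By sublist, the NRF2 targets held 2 falls in 19 tested rows and the thiol systems 2 in 12. The regulators, glutathione handling and pentose phosphate rows held 0 in 8, 8 and 7. Among sources of oxidants, which held the rest of the 8 falls, 4 of 12 rows fell (33.3%, beside the same 6.29% of all rows). NOX4, the NADPH oxidase of the tubule, went from 1.86 ± 0.717 to 0.496 ± 0.288 FPKM (limma adjusted p = 0.0202), the phagocyte oxidase subunits NCF4 and NCF1 from 4.03 ± 1.31 to 1.07 ± 0.830 and from 24.3 ± 20.4 to 6.58 ± 4.21 FPKM (0.0183 and 0.0353), and HAO1, a peroxisomal oxidase that forms hydrogen peroxide, from 20.2 ± 11.1 to 5.60 ± 3.61 FPKM (0.0169). NOX4 was under 1 FPKM in every gout library (0.146 to 0.782), with controls from 0.858 to 2.92. It passed the filter only through control libraries, so its fall is not independent of the filter, and the counts above include it. SESN3 exceeded 1 FPKM in gout only in replicate 1 (1.0004). NCF1 and NCF4 belong to phagocytes, whose markers fell too, as given above. After quantile normalization 2 of the 8, MGST1 and HAO1, were lower (limma adjusted p = 0.0337 and 0.0488). That setting thus left 2 falls in the 66 tested rows of the list, beside 245 in all 12252 tested rows. The excess of falls in the list before it has to be read against these counts.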

How the data were processed

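Kidney RNA of 5 gout and 6 healthy goslings was sequenced as paired-end polyadenylated libraries, per the labels' protocols; the labels' words on tank oxygen and on adipose RNA do not match goslings' kidneys and were not used. The deposited FPKM values were made by the authors; HISAT and StringTie, of unstated version, are named in the submitters' processing notes, and neither the build nor the annotation is given in the sources used here. Low values shared steps of single fragments in at most 1.80% of rows over 55 library pairs, so no counts were recovered and depth is unknown.

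Values were analysed as log2(FPKM + 1), with rows of at least 1 FPKM in at least 5 libraries, in R 4.3.3 with limma 3.58.1 (group as the only term, two-sided, trended empirical Bayes) and Benjamini-Hochberg adjustment over 12252 rows at 0.05. Tables and figures used Python 3.11.15, pandas 2.3.3, scipy 1.17.1 and matplotlib 3.10.9. Members and lists were chosen with earlier results of these data known. Named genes were all member rows, the called rows of the second list and neighbours of PRDX6. TXNRD1, OSGIN1, ABCC2, FTH1 and the PRDX6 neighbours were picked after values were seen. Results were recomputed with pseudocounts of 0.1 and 0.01, without a filter, with a filter at 5 FPKM, under quantile, upper quartile and TPM scaling, with array weights, with robust empirical Bayes, with label numbers as a block, by an exact rank-sum test, with rows of 1 symbol summed, and without each gosling. On simulated data of gout against control over 12252 rows 2-fold changes of rows above 5 FPKM were recovered in 31.6% and 4-fold changes in 87.4% of cases, with 6.15% false calls. Each simulated row was drawn independently, with the same spread in both groups and without the library-wide differences given above. The simulated share of false calls therefore need not hold for the real calls. Gene order was read from RefSeq's Taihu goose table, whose assembly may differ from the authors'. No sequence of these genes was used here.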

Additional observations from a re-analysis of the deposited data

Results flagged for a closer look

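Each group of values of a tested member row was examined for a library far from the rest on the log2 scale. Of 68 groups, 3 held one; chance gives about 1 in 20 groups. TXN was low in control replicate 3, at 77.3 FPKM, with 294 FPKM in the next control; gout replicate 3, at 83.0 FPKM, was the other low library for this gene. TXNRD3 was low in control replicate 6, at 5.40 FPKM, with 6.89 FPKM next. SOD1 was high in gout replicate 5, at 335 FPKM, with 139 FPKM next.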

How the results depend on the processing

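The number of rows called over the whole table, 856, was 450 with the stricter filter of 5 FPKM, 471 after quantile normalization, 512 with upper quartile scaling and 0 by the exact rank-sum test, which had 2182 rows at an unadjusted p under 0.05 and a smallest possible p of 0.00433. Leaving out 1 gosling gave 316 to 1466. The number of member rows called, 3, was 1 with no filter, 1 with upper quartile scaling and 0 by the rank-sum test (7 at an unadjusted p under 0.05), and ranged from 1 to 8 with single goslings left out. With the label number as a replicate block, 671 rows and 3 member rows (the minor PRDX6 row, SOD2 and CAT) were called. Deviations of same-numbered goslings from their group means had correlations from -0.09 to 0.24. Differently numbered goslings were not compared, so whether the numbers pair the birds was not tested. Of 744 single-row values under alternatives, 29 lost a call, 9 gained one and 0 called values changed sign. Uncalled fold changes near 0 (GSR, TXN, the major PRDX6 row, MSRB3, OXSR1) changed sign in some settings. Without counts, counting error at low FPKM cannot be given.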

Other observations

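Gout replicate 4 had 5 of the 34 tested member rows above the control range, or 14.7%, beside 16.5% of all tested rows, and 16 below it. It held the highest of all 11 values in 4 member rows, SQSTM1 (1052 FPKM), GSR (123 FPKM), TXNRD3 (14.9 FPKM) and the kinase OXSR1 (3.304 FPKM, with a control maximum of 3.302), and the lowest in 5, NFE2L2, GCLM, SOD1, SOD3 and MSRA. TXNRD1, the cytosolic thioredoxin reductase of the second list, was at 9.07 FPKM in it, with a control range of 1.57 to 4.42. TXNRD1 was picked after its values were seen; in the other gout libraries it stood at 1.68, 0.993, 0.960 and 0.976 FPKM, and the group difference did not pass (limma adjusted p = 0.59). In the same library GCLM, at 5.20 FPKM, was below the control minimum of 7.69 FPKM, and HMOX1 at 18.9 FPKM and the major NQO1 row at 11.5 FPKM lay within the control range. OSGIN1, ABCC2 and FTH1, NRF2 targets of the second list, stood at 192, 87.4 and 27580 FPKM in this library. Their control maxima were 10.5, 25.9 and 13880 FPKM. Other targets of that list, such as MGST1 at 8.38 and FECH at 0.577 FPKM, were below their control minima of 16.2 and 2.63. OSGIN1, ABCC2 and FTH1 were picked after values were seen, and their group differences did not pass (limma adjusted p = 0.297, 0.948 and 0.286). High OSGIN1 and FTH1 were not confined to replicate 4. In the other gout libraries, in order, OSGIN1 stood at 42.3, 6.59, 4.76 and 13.8 FPKM. FTH1 stood at 16781, 13063, 6906 and 35199 FPKM there, so both exceeded their control maxima in gout replicates 1 and 5 too. ABCC2 was at 14.9, 5.45, 4.05 and 10.2 FPKM, with none above its control maximum.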
